A study of Mus musculus with 2 samples.

Results

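Cd24a, Vcam1, Cd9, Cd63, Cd37, Cd44, Cd47, Selplg and Cxcr4 encode surface molecules other than integrins that blood cells use for homing and cell contact. These 9 genes were taken by symbol from a table of 23235 genes, and all 9 had a mean of at least 1 FPKM over the 2 libraries. FPKM is a fragment count divided by the length of the transcript and by the size of the library. In all, 4100 genes reached that mean, and they are called measured genes here. One library was made from each of 2 acute promyelocytic leukaemias of mice, named APL#1 and APL#2, and the design text gives the clones unlike frequencies of leukaemia-initiating cells. The labels do not say which of the pair holds more such cells. Per the labels, both leukaemias come from donors of strain C57BL/6-Ly5.2 that carry PML-RAR, described as mCG-PML-RAR transgenic in one field and as PML-RAR KI in another, with an age of 10 weeks and no treatment, although the titles carry VEH, which is not explained. The cells, which carry CD45.2, were transplanted into non-irradiated CD45.1+ recipients of strain C57BL/6-Ly5.1, with 2000000 cells for APL#1 and 200000 for APL#2. They were recovered from spleen on immunomagnetic columns. Each leukaemia is 1 clone with 1 library, so leukaemia, recipient, cell dose and library cannot be told apart, and no difference has a replicate check or a test. The genes were also chosen by their class with the FPKM values of these same libraries in view, so every difference between the libraries is a description. Pairs of levels below give APL#1 first.

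Leukaemic promyelocytes move between marrow, blood and spleen with the same machinery as normal leukocytes. Selectin ligands such as PSGL-1 start rolling on the vessel wall, chemokine receptors such as CXCR4 read CXCL12 made by stroma, and integrins then bind VCAM-1 on endothelium and stroma. Tetraspanins arrange such receptors in the membrane, CD44 binds hyaluronan, CD47 restrains uptake by macrophages through SIRP alpha, and CD24 is a small, heavily glycosylated protein held by a GPI anchor.

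Of the 9 genes, Cd24a was at least 2-fold higher in APL#2 on the scale of log2(FPKM + 1), and none was at least 2-fold lower. Over the 4100 measured genes, 86 (2.1%) were at least 2-fold higher on that scale and 100 (2.44%) at least 2-fold lower. The all-gene median difference was -0.17 (log2, APL#2 minus APL#1). Relative to it, 6 of the 9 genes lay above and 3 below, with a median of 0.40 over the 9. Relative differences of single measured genes had an interquartile range of -0.19 to 0.22, which is no measure for a median of 9 genes. By this relative difference the order was Cd24a (2.71), Vcam1 (0.95), Cd9 (0.91), Cxcr4 (0.63), Cd37 (0.40), Selplg (0.16), Cd47 (-0.13), Cd63 (-0.30) and Cd44 (-0.35). Among the 9 genes, Cd24a alone had a q of 0.05 or less in the authors' deposited table, where 6 genes (0.0258% of 23235) that were higher in APL#2 and 5 genes (0.0215%) that were lower reached it.

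**Figure D1:**
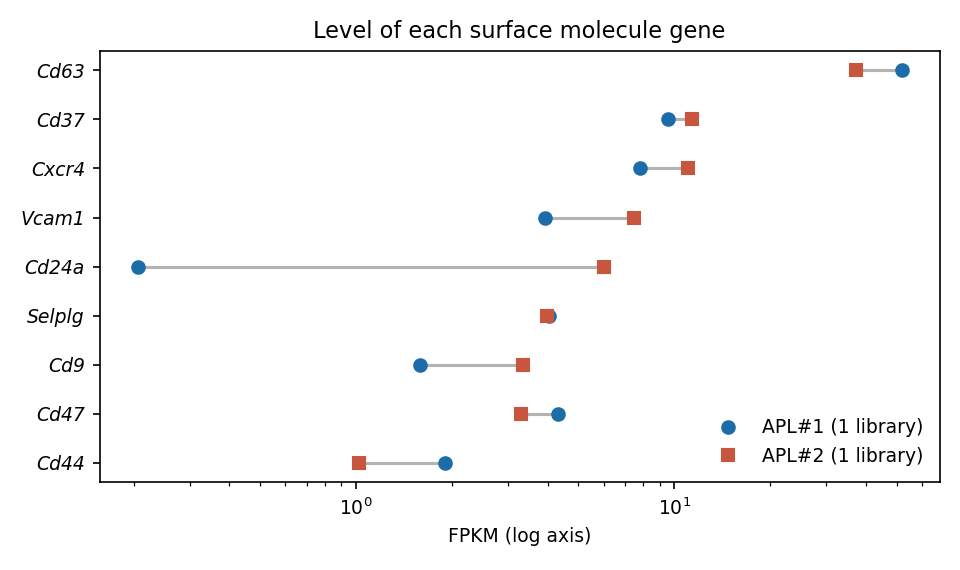
Level of each of the 9 genes in FPKM (log axis), with 1 point for the APL#1 library and 1 for the APL#2 library, ordered by the APL#2 level. Cd24a spans the widest distance, from 0.206 to 6.00 FPKM, whereas the points of Selplg (4.05 and 3.99) nearly coincide.

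The order of the levels, which FPKM allows between genes because it is scaled to length, was similar at its top in the libraries and differed lower down. In APL#1 the order was Cd63 (51.8 FPKM), Cd37 (9.53), Cxcr4 (7.79), Cd47 (4.31), Selplg (4.05), Vcam1 (3.94), Cd44 (1.91), Cd9 (1.59) and Cd24a (0.206). In APL#2 it was Cd63 (37.2 FPKM), Cd37 (11.4), Cxcr4 (11.05), Vcam1 (7.47), Cd24a (6.00), Selplg (3.99), Cd9 (3.34), Cd47 (3.29) and Cd44 (1.02). Neighbours in these orders could not be compared with a replicate spread. Cd47, Selplg and Vcam1 in APL#1 lay within 1.06-fold and 1.03-fold of the next, as did Cd37 and Cxcr4 (1.03-fold) and Cd9 and Cd47 (1.01-fold) in APL#2. Cd63 stood among the top 2.02% of measured genes in APL#1 and 3.17% in APL#2, while Cd24a held rank 9029 of all 23235 genes in APL#1 and rank 594 in APL#2. Cd24a was among the measured genes through its APL#2 level alone.

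RefSeq start-site windows (GRCm38.p6, another build than the mm9 of the gene table) were held for 6 of the 9 genes; Cd24a, Vcam1 and Selplg were not matched. The 250 bases before the start are shown for Cd9 and Cxcr4, the higher pair in APL#2 with the largest differences among the 6, and for Cd44, the lowest, a choice made after their values were seen. They are shown so that the sequence at each start can be read beside the RNA levels. Capitals mark matches on either strand to 4 short motifs. The TATA box was searched as TATAAA, the CCAAT box by the letters of its name, the GC box as GGGCGG and the E-box as CACGTG. Each line runs 5' to 3' toward the start on the strand of the gene, the minus strand for all 3. The windows are chr6:125494761-125495010 for Cd9, chr1:128592300-128592549 for Cxcr4 and chr2:102901666-102901915 for Cd44.
Cd9: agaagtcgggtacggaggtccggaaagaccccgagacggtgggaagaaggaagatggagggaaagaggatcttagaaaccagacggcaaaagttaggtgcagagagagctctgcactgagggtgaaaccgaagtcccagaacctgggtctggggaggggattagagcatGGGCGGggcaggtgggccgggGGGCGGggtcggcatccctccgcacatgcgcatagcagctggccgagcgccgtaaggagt
Cxcr4: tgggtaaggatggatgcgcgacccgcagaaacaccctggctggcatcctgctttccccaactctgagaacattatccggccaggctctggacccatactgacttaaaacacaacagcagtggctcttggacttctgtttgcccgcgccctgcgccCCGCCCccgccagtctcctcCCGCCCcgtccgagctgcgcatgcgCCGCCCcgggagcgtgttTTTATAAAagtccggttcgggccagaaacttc
Cd44: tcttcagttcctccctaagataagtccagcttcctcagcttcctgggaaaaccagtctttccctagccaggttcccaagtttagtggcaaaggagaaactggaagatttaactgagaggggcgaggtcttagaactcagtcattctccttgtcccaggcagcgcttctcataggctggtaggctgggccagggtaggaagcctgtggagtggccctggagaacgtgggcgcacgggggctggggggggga
The share of G and C was 61.6% for Cd9, 61.2% for Cxcr4 and 56.4% for Cd44. The Cd9 window held 2 GC boxes. The Cxcr4 window held 3 GC boxes and a TATA box 30 to 25 bases before the start, overlapped by a match on the other strand. The Cd44 window held none of the 4 motifs. Among the held genes not shown, Cd47 (-0.13 relative to all genes) had 2 GC boxes in each of its windows. Cd37 (0.40) had 1 GC box and 1 E-box, and Cd63 (-0.30) had none of the 4 motifs. GC boxes thus occurred on both sides of the all-gene median. Over all 32851 windows of this length, 12.4% held the TATA box, 33.8% the CCAAT box, 32.7% the GC box and 6.02% the E-box. A match is a string of letters and not a measured binding site, and its absence says only that these letters are not in this window.

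Cd24a, the GPI-anchored glycoprotein of immature blood cells that binds P-selectin and Siglec receptors, showed the widest difference of the 9. It lies at 43298975 to 43304071 on mm9 chromosome 10. Its level was 0.206 FPKM in the APL#1 library against 6.00 in the APL#2 library, a 29.1-fold ratio. APL#1 was thus low and APL#2 in the top 14.5% of measured genes. On the log2(FPKM + 1) scale the difference was 2.54, and 30 measured genes had a larger one, since Cd24a held rank 31. With a pseudocount of 0.1 in place of 1 the difference was 4.32. Steps in the low values of the table allowed the fragments behind each level to be estimated, at about 19 for Cd24a in APL#1 and 595 in APL#2. Counting error alone, at a 95% confidence level, gave a ratio of 18.5 to 45.9. The authors' deposited table gave q 0.00473 for Cd24a, and its test statistic implied a standard error of 1.03 on the log2 ratio of 4.86. That error rests on the authors' model and not on replicates.

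Sod3, the secreted superoxide dismutase, lay closest to Cd24a among measured genes in the plane of the 2 levels. It stood at 0.152 and 5.77 FPKM, at a distance of 0.08 (log2) from Cd24a. The next nearest were the small nucleolar RNA genes Snora21 (6.01 FPKM in APL#2) and Snora30 (6.22), both listed at 0 in APL#1, at distances of 0.27. Likeness over 2 libraries is a weak measure, because any gene low in one and moderate in the other is near.

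No measured gene among other surface proteins with a GPI anchor and partners of CD24 was 2-fold higher in APL#2. Of 24 listed genes, 9 were measured, 0 of them at least 2-fold higher in APL#2 and 1 at least 2-fold lower, with 3 above and 6 below the all-gene median and a list median of -0.12. Hmgb1, a nuclear protein that CD24 can bind when it is released from cells, was the one past 2-fold (62.4 and 29.8 FPKM). Ly6c2, a surface antigen of myeloid cells, stood at 224.2 and 130.5 FPKM and Cd52 at 8.71 and 4.92. Plaur, the urokinase receptor, was the highest of the 9 measured genes relative to all genes, at 0.851 and 1.44 FPKM. Siglecg, the mouse Siglec that recognises CD24, stood at 1.25 and 0.560 FPKM and fell short of the mean of 1. Other listed genes below that mean stood higher in APL#2 at low levels, among them Cd14 (0.0541 and 0.425 FPKM), Cd160 (0.0833 and 0.364) and Thy1 (0.0114 and 0.232).

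Cd24a is also a marker of B cells, red cell precursors and neutrophils, so their other markers were read beside it. All 12 B cell markers were under 1 FPKM in both libraries, with a summed level of 0.739 FPKM in APL#1 and 0.838 in APL#2, and 10 of the 12 were higher in APL#2, each at a low level (Cd79a at 0.0934 and 0.158 FPKM). Of 12 erythroid markers 10 were found in the table, and all 10 were under 1 FPKM, with sums of 0.754 and 0.545 FPKM, most of it Tfrc (0.694 and 0.501). Epor, Slc4a1 and Hbb-b2 were listed at 0 in both libraries. The 11 neutrophil markers summed to 833.3 FPKM in APL#1 and 462.4 in APL#2, with 3 of 11 higher in APL#2 and 4 under 1 FPKM in both libraries. S100a8 (309.0 and 105.3 FPKM) and S100a9 (378.8 and 148.1) carried most of that sum and its fall. The other 9 markers summed to 145.5 and 208.9 FPKM, the opposite direction, most of it Camp (97.5 and 152.5) and Ngp (31.7 and 41.7). Only 3 of these 9 were higher in APL#2, and the rest were lower, among them Ltf (2.29 and 0.860). The part of these cell types in the Cd24a difference was not tested. In bulk RNA of this kind, fewer cells of a type and less RNA per cell cannot be told apart.

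**Figure D2:**
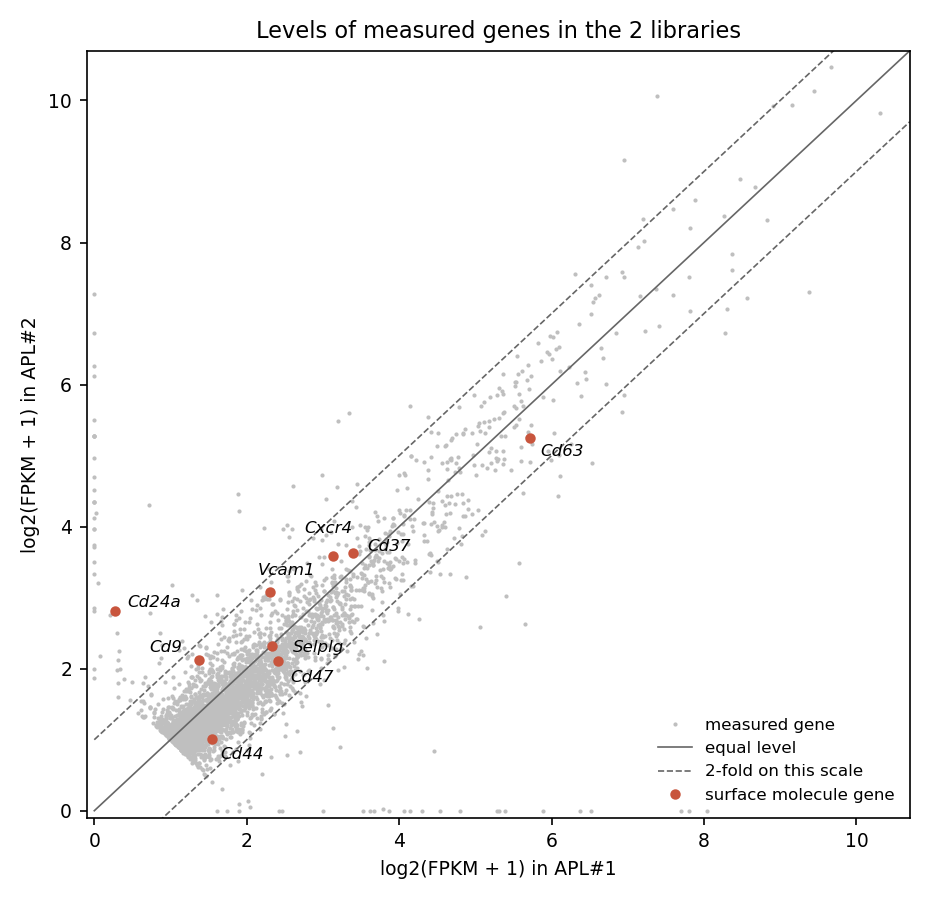
Level of each measured gene, as log2(FPKM + 1), in the APL#1 library (x axis) and the APL#2 library (y axis), with the 9 genes marked and dashed lines at 2-fold on this scale. Cd24a lies far above the upper line, Vcam1 (0.78) and Cd9 (0.74) lie just inside it, and the other 6 lie closer to the line of equal level.

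Vcam1 encodes the adhesion receptor of the immunoglobulin superfamily that binds the integrin of Itga4 and Itgb1. It lies at 115812938 to 115832606 on mm9 chromosome 3. APL#1 held 3.94 FPKM and APL#2 the higher level of 7.47, a 1.90-fold ratio. On the log2(FPKM + 1) scale 3.39% of measured genes had a larger difference. About 698 and 1416 fragments stood behind these levels, with a counting range of 1.73 to 2.08 for the ratio. For Vcam1 the authors' deposited table implied a standard error of 0.64 on the log2 ratio of 0.92, and the 95% interval of -0.33 to 2.18 held 0. The measured genes nearest to Vcam1 in the plane of levels were Gm11968 (3.77 and 7.18 FPKM), Banf1 (3.81 and 6.93) and the histone pair Hist2h2aa1 and Hist2h2aa2 (3.90 and 6.89).

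The receptor genes of VCAM-1 and the other adhesion molecules of this superfamily gave values on either side of the all-gene median. Itga4 stood at 3.05 and 1.90 FPKM, and Itgb1 at 1.07 and 1.02. Of 23 listed genes 6 were measured, 0 at least 2-fold higher and 0 at least 2-fold lower, 2 above and 4 below the all-gene median. Pecam1, an adhesion molecule of endothelium and leukocytes, was farthest from the median, at 3.62 and 1.62 FPKM. Icam2 stood at 2.61 and 2.74 FPKM, and Icam1 was low in both libraries (0.0599 and 0.0693).

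Vcam1 is expressed by splenic macrophages, endothelium and stroma, whose markers were low. Of 14 red pulp macrophage markers 13 were under 1 FPKM in both libraries, and they summed to 2.41 FPKM in APL#1 and 2.39 in APL#2. Cd68 made up most of that sum (1.54 and 1.01 FPKM), and Spic, the defining factor of these macrophages, and Marco were listed at 0 in both. Emr1, an adhesion receptor gene that marks mouse macrophages, was higher in APL#2 (0.0230 and 0.537 FPKM), as was the iron exporter gene Slc40a1 (0.0330 and 0.224). Of 14 stromal and endothelial markers 9 were listed at 0 in both libraries, and the list summed to 1.33 and 1.13 FPKM, nearly all from Pdgfrb (1.30 and 1.11). The part of these cells in the Vcam1 difference was not tested.

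Among the 3 tetraspanin genes, Cd9 was higher in APL#2, Cd37 slightly higher and Cd63 lower. Cd9 (mm9 chromosome 6, 125410284 to 125444773), a tetraspanin of platelets and of many immature cells, had 1.59 FPKM in the APL#1 library and 3.34 in that of APL#2, a 2.10-fold ratio. Counting error on about 100 and 224 fragments gave a ratio of 1.66 to 2.65. With its pseudocount of 1 the log2 scale held Cd9 at 0.74, under the 2-fold line, and with a pseudocount of 0.1 it passed that line at 1.02. In the authors' deposited table the implied log2 interval for Cd9 was -0.95 to 3.09.

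Cd63, a tetraspanin of late endosomes, lysosomes and granules, was by far the most abundant of the 9. Its locus is 128345975 to 128349874 on mm9 chromosome 10. APL#1 was the higher at 51.8 FPKM against 37.2, a ratio of 1.39. Its difference was -0.30 relative to the all-gene median, and 16.3% of measured genes lay lower. Cd37 (mm9 chromosome 7, 52489002 to 52494209), a tetraspanin found mainly on leukocytes, stood at 9.53 and 11.4 FPKM, a 1.19-fold ratio. The implied log2 intervals from the authors' deposited table, -1.59 to 0.64 for Cd63 and -1.17 to 1.68 for Cd37, both held 0.

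Close copies bear on some of these levels. A search of the GENCODE M21 transcripts at 90% identity over at least 200 bases found Cd63-ps beside Cd63 (98.5% over 812 of 1109 bases) and Cd9-ps beside Cd9 (90.7% over 664 of 1228 bases). Cd9 also shared 218 identical bases with Gm26728. Cd24a matched the pseudogenes Gm15352 (91.9% over 258 of 1816 bases) and Gm6212 (95.2% over 228 bases). The levels of Cd63, Cd9 and Cd24a are uncertain to the extent that reads were split with these copies. For the other 6 genes, 0 such copies were found, and no other row of the table overlapped any of the 9 loci.

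The wider tetraspanin family was measured in 11 of 30 listed genes. Of the 8 measured genes besides Cd9, Cd63 and Cd37, 4 lay above and 4 below the all-gene median, with a median of 0.09 and 0 past 2-fold in either direction. Cd81, a partner of integrins, had the highest difference of the 8 relative to all genes (2.17 and 3.77 FPKM). Cd53, a leukocyte tetraspanin, came next (6.90 and 8.05). Tspan31 (4.95 and 2.92 FPKM) and Tspan32 (4.87 and 3.43) had the lowest differences. A further 9 of the 30 genes were listed at 0 in both libraries, among them Tspan6, Tspan7 and Tspan8. Of 12 listed partners of tetraspanins only Itgb1 and Sdcbp (2.18 and 2.24 FPKM), a scaffold protein of exosomes, were measured.

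Platelet markers were read beside Cd9. Of 12 listed, 8 were listed at 0 in both libraries, among them Pf4, Ppbp and Gp9. The list summed to 2.42 FPKM in APL#1 and 4.06 in APL#2, nearly all from the integrin gene Itga2b (2.34 and 3.95). Itga2b is expressed by progenitors too, and its part in the Cd9 difference was not tested.

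**Figure D3:**
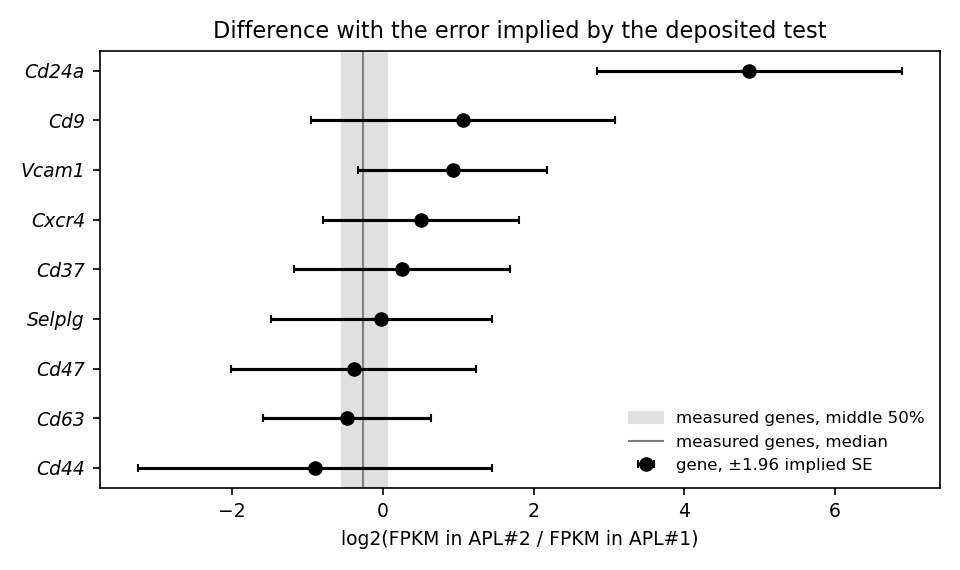
Difference of each of the 9 genes as log2 of the FPKM ratio, with bars of the 95% interval implied by the authors' deposited test, over the median (grey line) and middle 50% (grey band) of measured genes above 0 in both libraries. The bar of Cd24a (2.84 to 6.88) lies above 0 and the bars of the other 8 genes cross it.

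Cd44, the receptor for hyaluronan, was the lowest of the 9 relative to all genes. It spans 102651300 to 102741822 on mm9 chromosome 2. With 1.91 FPKM, APL#1 was above APL#2 (1.02) by a ratio of 1.87. On the log2(FPKM + 1) scale 12.9% of measured genes lay lower. Of 18 listed partners 6 were measured, 3 above and 3 below the all-gene median and 0 past 2-fold. Spp1, which encodes the CD44 ligand osteopontin, stood at 0.664 and 1.72 FPKM, and Hmmr, a hyaluronan receptor with a role in mitosis, at 4.23 and 2.26. The linkers of CD44 to actin, Msn (7.33 and 6.82 FPKM), Ezr (4.68 and 3.91) and Rdx (1.49 and 1.13), differed by at most 1.32-fold. Srgn, which encodes the granule proteoglycan serglycin, was abundant in both libraries (47.6 and 53.3 FPKM).

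Cd47, the signal that restrains phagocytes, was close to the all-gene median. Its locus on mm9 is chromosome 16, 49855767 to 49911796. Levels were 4.31 FPKM for APL#1 and 3.29 for APL#2, a ratio of 1.31 toward APL#1 and -0.13 (log2) relative to all genes. Sirpa, its receptor on macrophages, stood at 1.69 and 1.13 FPKM. Of 14 listed partners 6 were measured, 0 at least 2-fold higher and 2 at least 2-fold lower. These were the thrombospondin Thbs4 (46.7 and 10.2 FPKM) and calreticulin, Calr (119.9 and 48.1), an uptake signal when at the cell surface. Thbs1, which encodes the thrombospondin best known as a CD47 ligand, went the other way. It stood at 0.147 and 1.62 FPKM, with a mean under 1. In the authors' deposited table q was 0.0164 for Thbs4, 0.853 for Calr and 0.238 for Thbs1.

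Selplg, which encodes PSGL-1, the main ligand of P-selectin on myeloid cells, was nearly equal in the libraries. On mm9 it lies on chromosome 5 at 114267807 to 114280510, and its levels were 4.05 FPKM for APL#1 and 3.99 for APL#2. Its small difference was -0.02 as deposited and became positive (0.19) with the libraries scaled to equal medians, so it has no settled direction. Counting error on about 383 and 404 fragments gave a ratio of APL#2 to APL#1 between 0.858 and 1.13.

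The selectins and the enzymes that decorate PSGL-1 were likewise spread around the median. Of 9 measured genes besides Selplg, 4 lay above and 5 below the all-gene median, with a median of -0.05 and 0 past 2-fold. Sele (0.0452 and 0.0836 FPKM) and Selp (0.0256 and 0.0423), the selectin genes of endothelium and platelets, were near 0. St3gal4, a sialyltransferase of selectin ligands, was highest relative to all genes (3.48 and 4.61 FPKM). Fut7, the fucosyltransferase that completes these ligands, was low and nearly equal (0.415 and 0.443), and Spn, another sialylated surface protein, stood at 5.03 and 5.66 FPKM.

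Cxcr4, the receptor of CXCL12, was higher in APL#2. It occupies 130484776 to 130488876 on mm9 chromosome 1. Levels were 7.79 FPKM for APL#1 and 11.05 for APL#2, a 1.42-fold ratio with a counting range of 1.29 to 1.56. On the log2(FPKM + 1) scale 7.59% of measured genes had a larger difference. In the authors' deposited table the implied log2 interval for Cxcr4 was -0.80 to 1.80. The ligand gene Cxcl12 was near 0 in both libraries (0.00589 and 0.00966 FPKM), and the second receptor gene, Cxcr7, was listed at 0.

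Of 12 measured genes around CXCR4, 6 lay above and 6 below the all-gene median, 0 at least 2-fold higher and 1 at least 2-fold lower. Adrbk1, a kinase that desensitises such receptors, had the highest difference relative to all genes (3.20 and 6.16 FPKM). Arrb2, of beta-arrestin, stood at 7.10 and 8.51 FPKM. Gnai2, the G protein subunit through which chemokine receptors signal, stood at 19.1 and 12.9 FPKM. Elane, neutrophil elastase, which can cleave CXCL12 and CXCR4, was the one past 2-fold (32.4 and 5.01 FPKM). Cxcr4 was the main chemokine receptor transcript here. Of 24 other chemokine, sphingosine and chemoattractant receptor genes 22 were under 1 FPKM in both libraries, and 1 was measured, the leukotriene receptor gene Ltb4r1 (1.28 and 1.99 FPKM).

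**Figure D4:**
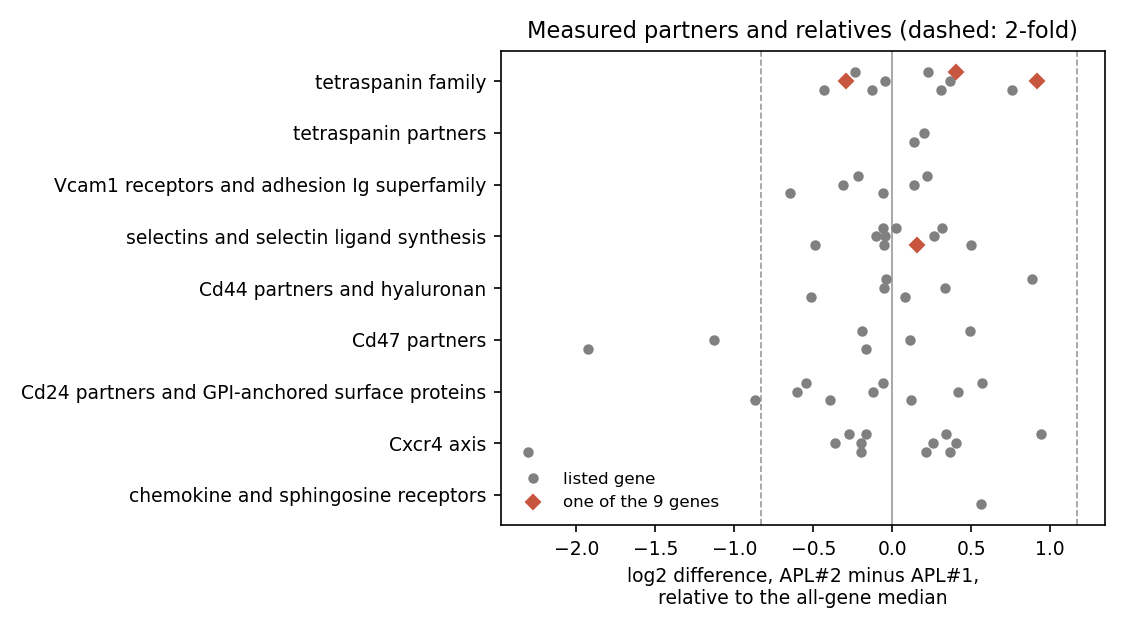
Difference of each measured gene of the 9 pathway lists, as log2(FPKM + 1) in APL#2 minus APL#1 and relative to the all-gene median, with the members among the 9 genes as diamonds and dashed lines at 2-fold before centring. Thbs4, Calr, Hmgb1 and Elane lie beyond the lower line, and no listed gene lies beyond the upper line.

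Position on the chromosome was read from the 10 measured genes on each side of each gene, small RNA genes left out. Around Cd44, 19 of 20 neighbours fell short of the median of all genes, and their own median was -0.49 (log2, relative to all genes). They run from Fnbp4 to BC052040, the latter 12809 kb from Cd44, and the exception was Trim44 (1.46 and 1.23 FPKM). Cd44 itself, at -0.35, lay inside that range, with 7 neighbours higher and 13 lower. Lmo2 (6.87 and 3.03 FPKM) and Caprin1 (2.87 and 1.30), near Cd44 on the chromosome, are examples.

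The neighbours of Cd9 on chromosome 6 had a median of 0.16, and 15 of the 20 exceeded the median of all measured genes. Cd9, at 0.91, exceeded 18 of these 20, and the lectin-like receptor gene Klrb1f and 2310001H17Rik were higher. Over all measured genes, 96.2% had a lower difference than Cd9. The Cd9 difference was 0.75 above the neighbours' median, and 0.63 above it with 20 genes on each side.

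The other genes were read the same way. Cd24a exceeded all 20 neighbours, which had a median of 0.07 and reached 0.50 at most. Vcam1 exceeded all 20 of its own, with a median of -0.07 and a maximum of 0.54. Cxcr4 exceeded 19 of 20 neighbours and Cd37 18 of 20. Over all measured genes, 99.2% had a lower difference than Cd24a, 96.6% than Vcam1, 92.4% than Cxcr4 and 86.4% than Cd37. The neighbour counts are near these shares, so they say nothing particular about position. Selplg lay 0.24 above its neighbours' median, Cd47 0.12 below it (-0.12) and Cd63, near the end of chromosome 10 with 12 neighbours, 0.26 below it (-0.26). Measured genes are sparse in places, and the farthest neighbour lay 35180 kb away for Cd47, 35016 kb for Cxcr4, 18486 kb for Cd24a and 15133 kb for Vcam1.

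**Figure D5:**
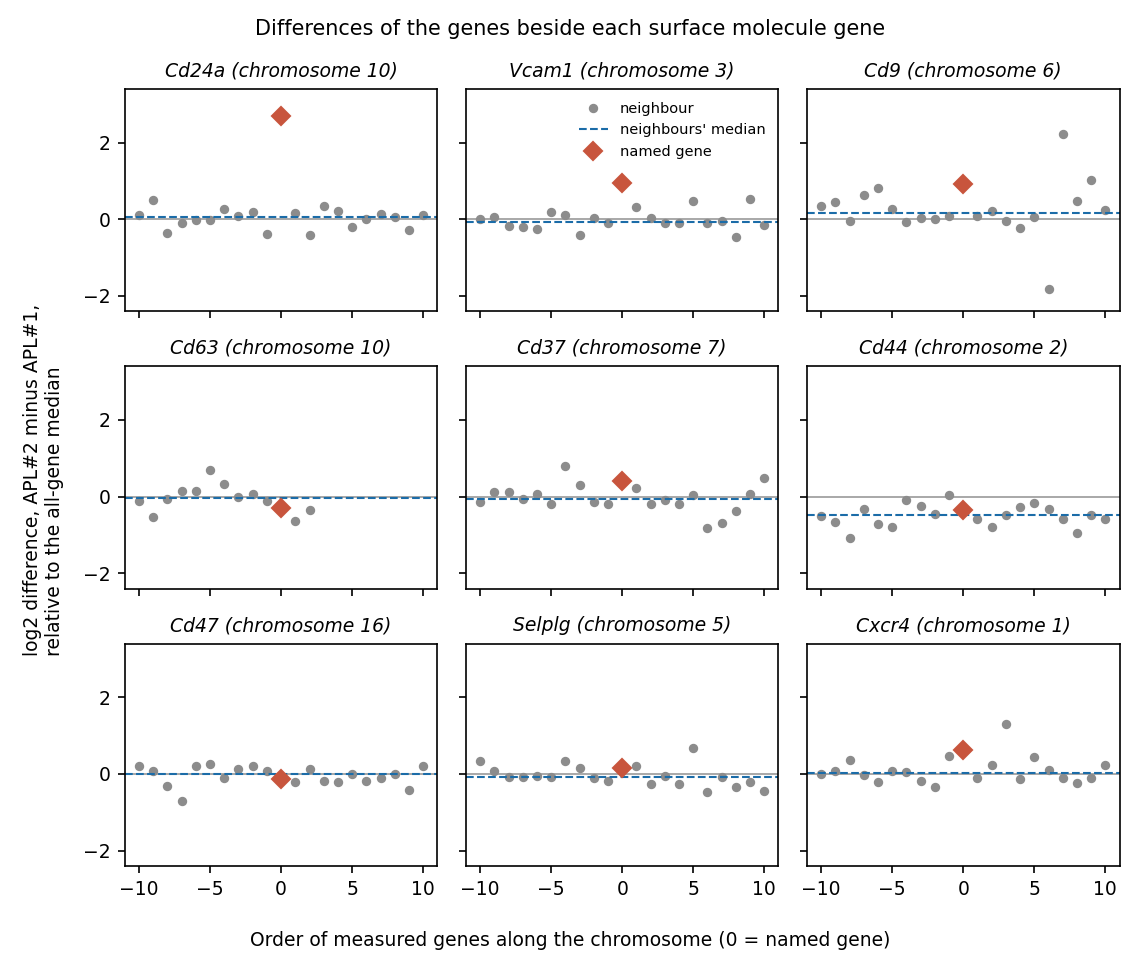
Difference of up to 10 measured genes on each side of each of the 9 genes, in chromosome order, as log2(FPKM + 1) in APL#2 minus APL#1 relative to the all-gene median; the x axis counts genes and the dashed line is the neighbours' median. Cd24a (2.71) stands above all its neighbours, whereas Cd44 (-0.35) lies among neighbours with a median of -0.49.

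The label of the cells was read beside their markers, which do not settle the stage of the cells. All 12 listed genes of myeloid progenitors and promyelocytes were measured, with Mpo at 661.8 and 157.3 FPKM, Cebpe at 8.20 and 7.40 and Ptprc, which encodes CD45, at 4.66 and 4.10. Of the 12, 4 were higher in APL#2, among them Ms4a3 (7.85 and 15.9 FPKM), and 8 were lower, among them Elane (32.4 and 5.01). The 12 genes summed to 744.4 and 214.7 FPKM, less than the 11 neutrophil markers in each library (833.3 and 462.4). T and NK cell markers (12) were all under 1 FPKM and summed to 0.0858 FPKM in APL#1 and 0.280 in APL#2. Dendritic cell markers summed to 3.16 and 4.08 FPKM, most of it Bst2 (2.30 and 2.19) and Cd74 (0.360 and 1.08). FPKM summed to 34893.9 in APL#1 and 35239.9 in APL#2. On this scale a level under 1 FPKM does not mean absence. Cd44, at 1.02 FPKM in APL#2, held rank 3714 of all 23235 genes there, while 10322 genes in APL#1 and 9860 in APL#2 were listed at 0. Levels called low are low only beside the other genes named.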

How the data were processed

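RNA was sequenced from 1 library of each leukaemia, and the authors deposited 1 gene table. Per the submitters' processing notes, the build was mm9 and the tools were Cuffdiff, Cufflinks and TopHat2 (version 2.0.10), whose roles and order are not stated there. Nothing used here gives the annotation, filters, strandedness or normalization option. The deposited values were read as FPKM from the table's layout; its header names no unit. The test statistic in the deposited table is a score per gene, per the file headers, and the p-value and q-value are the authors'. The deposited log2 column was not used, because it holds placeholders where a library is at 0. The table's start coordinates count from 0 and were raised by 1, since its loci for Cd24a (5097 bases), Vcam1 (19669) and Cxcr4 (4101) then match RefSeq gene lengths.

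Differences were log2((APL#2 + 1)/(APL#1 + 1)), on FPKM with a pseudocount of 1, which understates low genes; ratios are of plain FPKM. Genes with a mean of at least 1 were measured. With 1 library per leukaemia no test was run. Implied standard errors are the log2 ratio over the authors' statistic, and intervals are at the 95% level. For depth, 134 genes with 1 GENCODE M21 transcript in APL#1 and 171 in APL#2 fell on the first step of low values, where 1 fragment on 1 kb was worth 0.0196 and 0.0183 FPKM, or scaling totals of about 51100000 and 54600000 fragments. Fragments per gene are estimates for its longest coding transcript (a shorter one gives fewer), and their intervals cover counting error only. Members, 9 pathway lists and 9 cell type lists were chosen with earlier results of these data known. Named were all members, listed measured genes past 2-fold, the farthest gene of each list, known ligands and receptors, and the 3 genes nearest to Cd24a and to Vcam1; other genes were named after their values were seen. Of the listed symbols, 5 were not matched and are not analysed here. Some listed genes are not reported here. Calculations used Python 3.11.15, pandas 2.3.3, numpy 2.4.6, matplotlib 3.10.9 and BLAST 2.17.0, and the difference and neighbour steps were checked on simulated data. Alternatives were pseudocounts of 0.1 and 0.5, other minimum means, scaling by the median or upper quartile, leaving out small RNA genes and other numbers of neighbours.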

Additional observations from a re-analysis of the deposited data

How the results depend on the processing

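The direction of 8 of the 9 genes, as deposited and relative to the all-gene median, was the same under all 7 settings. Selplg, near 0, changed sign. The settings covered pseudocount, minimum mean, scaling and small RNA genes. Only scaling by the median or upper quartile could change a deposited direction. The other settings cannot alter the sign of a gene's own difference. With a pseudocount of 0.1, 2 of the 9 genes were at least 2-fold higher in APL#2 (Cd24a and Cd9), against 3.22% of measured genes. With a minimum mean of 5 there were 0, because Cd24a then was no longer among the 4 members kept. The share over all 793 genes kept at that mean was 5.80%. The Cd24a difference was 4.32 with a pseudocount of 0.1 and 3.20 with 0.5. Scaling by the median or by the upper quartile raised the median difference of the 9 genes from 0.23 to 0.47 and 0.45, since it removes the all-gene shift, and without a filter the median relative to all genes was 0.23, as the all-gene median then is 0. The count at least 2-fold lower was 0 under every one of these settings. The share of all genes that low ran from 0.452% without a filter to 8.20% with a minimum mean of 5. The remaining 20 shifts were in single genes or partner lists. Among them, Vcam1 rose to 0.997 with median scaling and to 0.980 with upper quartile scaling, just under the 2-fold line. With a pseudocount of 0.1, Pecam1 was at least 2-fold lower and Spp1 at least 2-fold higher, and with a minimum mean of 0.5 Thbs1 counted as higher and the median of the tetraspanin family became -0.08. No paired analysis was possible because each leukaemia has 1 library. Depth limits Cd24a in APL#1 most, with a counting error of 22.9% on its level.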
